A study of Mus musculus with 9 samples.

Results

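The clustered protocadherins are the 58 genes, of 24532 listed, whose symbols place them in the alpha, beta or gamma protocadherin cluster of the mouse. They were selected by symbol alone: 14 alpha genes (Pcdha1 to Pcdha12, Pcdhac1 and Pcdhac2), 22 beta genes and 22 gamma genes, the last made up of 12 of the A subtype, 7 of the B subtype and the C-type genes Pcdhgc3, Pcdhgc4 and Pcdhgc5. Their expression was measured by RNA-seq in the medial prefrontal cortex of 9 C57BL/6 mice (C57BL/6J in the study's methods), 11 weeks old by the labels, in 3 groups of 3 with 1 library per mouse. CT mice were wild type and not stressed, WT_ST mice were wild type and held in chronic restraint for 6 h a day over 21 days, and KO_ST mice lacked Fkbp5 and were restrained in the same way. FKBP5 is a co-chaperone of the glucocorticoid receptor, and the study asked how its loss alters the response to chronic stress. Knock-out mice without stress were not analysed here, so a difference between KO_ST and CT holds both genotype and stress. The knock-out is carried in all cells of the mouse and not in the cortex alone.

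Clustered protocadherins are cell-surface adhesion proteins of neurons. In the alpha and gamma clusters each variable first exon has its own promoter and is spliced to constant exons that encode a shared cytoplasmic tail, whereas each beta gene is a single exon. A single neuron switches on a small, largely random choice of the alternate promoters, through DNA methylation and looping by CTCF and cohesin, while most C-type promoters are used more steadily. The proteins join in matching combinations across cell contacts, and they are known for dendrite self-avoidance, neuron survival and the tiling of axons. A library of whole tissue sums over many cells, so it shows the average RNA level of each member and not the combination of any cell.

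In GRCm38 all 3 clusters lie on the plus strand of chromosome 18, with alpha at chr18:36930285-37188897, beta at chr18:37264998-37521419 and gamma at chr18:37661775-37841873. The annotated transcripts have 4 exons in alpha and gamma and 1 in beta. The constant exons supply 2860 bases of every alpha transcript that could be matched (13 of 14), which is 48.6% to 54.9% of its length. They supply 13.4% to 45.5% of a gamma transcript, with a median of 44.8%, the lowest share being that of Pcdhgb8. Reads from these exons fit the other genes of the cluster too, apart from most of the gamma constant sequence in the case of Pcdhgb8, which shares 375 bases where the other gamma genes share at least 2116. The split of alpha and gamma reads between members thus depends on how the quantification apportioned them. Beta genes share almost no exonic sequence: Pcdhb21 and Pcdhb22 overlap over 9.67% and 6.88% of their lengths, and the median beta gene shares 0% of its exonic bases.

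Libraries held 43778471 to 61150128 counted reads. All but 1 of the 58 genes had reads in each library and averaged at least 30, the minimum for testing. Pcdhb1 did not: it had 4, 12 and 0 reads in the CT mice, 2 in each WT_ST mouse and 0, 0 and 4 in the KO_ST mice, where a count of 0 allows up to 3 reads. Fkbp5, the check of the genotype labels, was at 7.61, 6.46 and 7.28 FPKM in the CT mice, at 9.83, 9.47 and 10.3 in the WT_ST mice and at 3.59, 4.69 and 4.45 in the KO_ST mice. FPKM is a read count scaled by transcript length and library depth, so levels given in it can be compared between genes. The groups did not overlap for Fkbp5, and KO_ST against WT_ST gave a log2 fold change of -1.04 (SE 0.0866, Benjamini-Hochberg adjusted p = 0.00908 from limma). Its transcript was thus reduced but still counted in the KO_ST mice.

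The gamma cluster made up most of the clustered protocadherin RNA. Over all 9 mice it held 67.6% of the members' summed FPKM, against 16.8% for alpha and 15.6% for beta, and the 3 gamma C-type genes alone held 34.9%. The highest member was Pcdhgc5, with an FPKM of 65.7, 64.0 and 62.4 in CT, 67.1, 64.5 and 64.1 in WT_ST and 61.9, 61.5 and 67.9 in KO_ST. It ranked first of the gamma genes in all 9 mice, 3.07-fold above the next, Pcdhgc3, in the mean. The lowest gamma member was Pcdhgb8, annotated as a transcribed pseudogene, at a mean FPKM of 0.334.

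In the alpha cluster Pcdhac2 stood highest in all 9 mice. Its FPKM was 17.3, 14.7 and 15.2 in CT, 13.9, 16.0 and 16.3 in WT_ST and 17.4, 18.0 and 17.0 in KO_ST. This mean of 16.2 was 3.18-fold that of Pcdha12 (5.09), the next alpha gene, and 36.5% of the alpha cluster. The other C-type alpha gene, Pcdhac1, was at a mean of 1.45 and ranked 11 of 14, so a C-type name did not by itself go with a high level. Pcdha8 was the lowest alpha gene, with an FPKM of 0.369, 0.141 and 0.337 in CT, 0.470, 0.138 and 0.308 in WT_ST and 0.185, 0.190 and 0.148 in KO_ST. Its groups overlapped.

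The remaining members spread over a range of levels within each subtype. The 12 alpha genes that are not C-type had mean FPKM values of 0.254 to 5.09 with a median of 2.25, and 3 of the 14 alpha genes were below an FPKM of 1. The 12 gamma A genes ran from 2.92 to 9.46, led by Pcdhga11 (9.46) and Pcdhga9 (8.35), and the 7 gamma B genes from 0.334 to 5.30, led by Pcdhgb6. Among gamma genes only Pcdhgb8 was below an FPKM of 1. The genes nearest the 3' end of their cluster were thus also the highest in gamma, where Pcdhgc5 is the last variable exon, and in alpha, where Pcdhac2 is.

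Beta genes had no such leader. Pcdhb17, the highest with a mean FPKM of 5.34, was 1.11-fold above Pcdhb9 and ranked first in 7 of 9 mice, and 6 of the 22 beta genes were below an FPKM of 1. Pcdhb1, the lowest, had a mean of 0.0213. The order of the genes within a cluster was much the same in every mouse. Over the 36 pairs of mice, Spearman's rho between levels was 0.906 to 0.975 across the 22 beta genes, 0.816 to 0.975 across the gamma genes and 0.793 to 0.982 across the alpha genes. These correlations are across genes, which share constant exons in alpha and gamma and are not independent replicates.

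**Figure D1:**
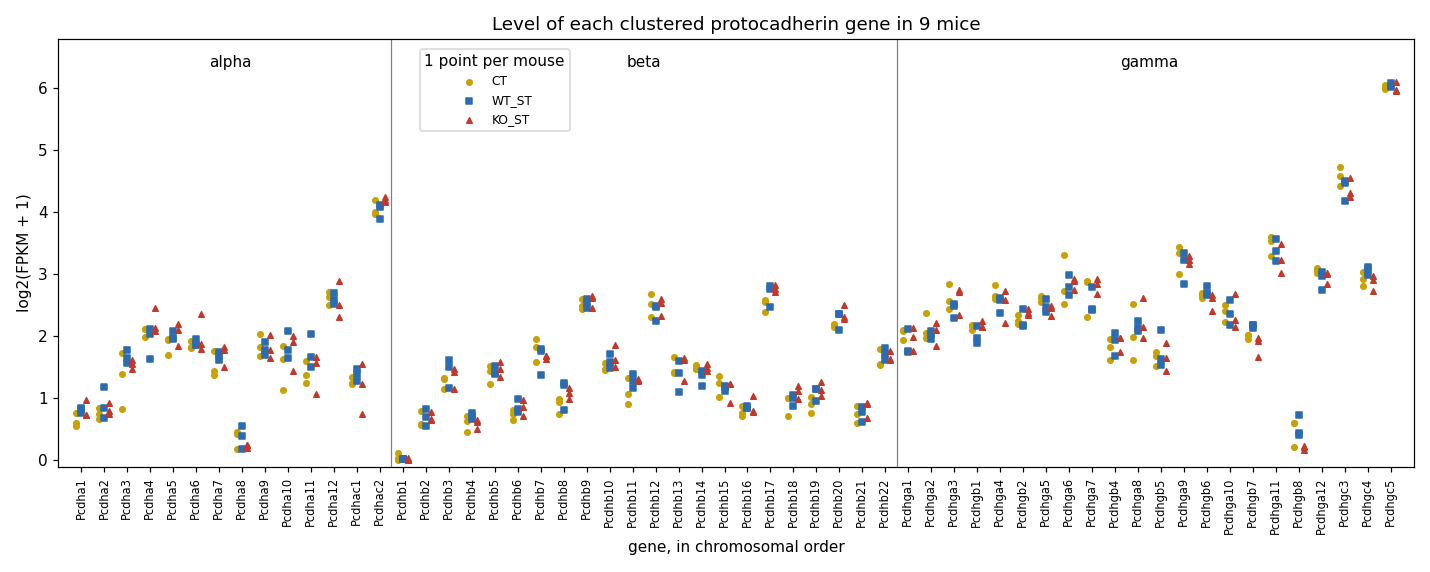
Level of each of the 58 genes as log2(FPKM + 1), 1 point per mouse, in chromosomal order within each cluster (circles CT, squares WT_ST, triangles KO_ST). Pcdhac2, Pcdhgc3 and Pcdhgc5 stand above the other genes of their clusters in every group, and for most genes the points of the 3 groups overlap.

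Single members varied more between mice of a group than most genes did. The median within-group coefficient of variation (CV) of FPKM was 15.9% over the 57 tested members, against 8.04% over all 14370 genes tested. The members were counted with fewer reads, a median of 665 per mouse against 1217, and the part of read number in the larger spread was not tested. The CV expected from counting alone was 3.88% for the median member and 2.87% for the median gene. For 52 of the 57 members the observed CV was more than 2 times the counting CV, as it was for 9818 of the 14370 genes. The median was 18.9% for the 12 alpha genes that are not C-type, 15.9% for beta, 15.7% for gamma A and 8.62% for gamma B. Pcdhgb8 and Pcdha8 varied most, at 47.6% and 47.3%, and were also among the lowest in reads. Pcdhga8, at 531 to 1400 reads, varied by 29.6%, Pcdha10, at 313 to 862 reads, by 27.9% and Pcdha11, at 274 to 828 reads, by 27.9%. Their counting CVs were 3.44%, 3.98% and 4.42%. The counting CV leaves out how reads of the constant exons were apportioned between members, and the part of this in the spread was not tested. These 3 genes are named for their spread, after their values were seen. Pcdhga8 had an FPKM of 4.72, 2.06 and 2.98 in CT, 3.73, 3.25 and 3.38 in WT_ST and 3.47, 5.18 and 2.93 in KO_ST, so that the extremes fell in different groups. Pcdha10 had 2.59, 2.099 and 1.19 in CT, 3.26, 2.44 and 2.16 in WT_ST and 1.73, 3.04 and 2.76 in KO_ST.

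The C-type genes had a median CV of 8.13%, about that of all genes, but were not alike. Pcdhgc5 varied by 3.84%, Pcdhac2 by 7.04%, Pcdhgc4 by 8.13%, Pcdhgc3 by 11.6% and Pcdhac1 by 26.3%. Pcdhac1 spanned 0.686 to 1.95 among the KO_ST mice alone. Their median counting CV was 1.498%, the lowest of the subtypes, although Pcdhac1 was counted with 191 to 462 reads per mouse.

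**Figure D2:**
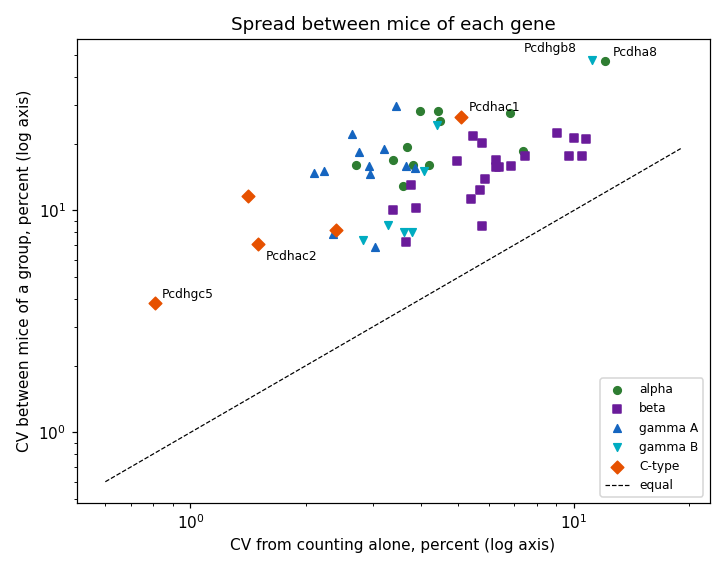
Spread of each tested member between mice of a group (CV of FPKM in percent, vertical, log axis) against the CV that its read number alone would give (horizontal, log axis), by subtype. All points lie above the dashed line of equality, and Pcdhgc5 has the smallest spread while Pcdha8 and Pcdhgb8 have the largest.

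The sums over each cluster were steadier than their members. The within-group CV of the summed FPKM was 3.06% for alpha, 4.37% for beta and 3.60% for gamma, where members varying independently of each other would give 4.61%, 3.27% and 2.71%. No single mouse stood high or low for all members. KO_ST replicate 2 was the highest mouse for 9 members and the lowest for 11, and CT replicate 2 was the highest for 8 and the lowest for 11.

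The summed alpha FPKM was 44.3, 39.8 and 42.3 in CT (42.1 ± 2.27, SD, n = 3). It was 45.3, 44.5 and 44.1 in WT_ST (44.6 ± 0.593) and 46.6, 46.3 and 46.6 in KO_ST (46.5 ± 0.202). Each KO_ST mouse lay above the other 6 mice, by 10.4% over CT and 4.23% over WT_ST in the mean, whereas WT_ST was 5.94% above CT with overlap. The latter, a log2 ratio of 0.08, fell to 0.04 without CT replicate 2. These sums are a description, and no test was run on them. For scale, the groups did not overlap for 14.0% of single tested genes in WT_ST against CT. That share was 16.5% in KO_ST against CT and 11.1% in KO_ST against WT_ST. These shares stand beside the sums below as well.

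The alpha genes that are not C-type made up the difference between WT_ST and CT. Their sum was 25.6, 23.7 and 25.6 in CT, 29.7, 27.0 and 25.98 in WT_ST and 27.3, 26.9 and 29.0 in KO_ST. Neither stressed group overlapped with CT, with means 10.4% and 11.1% higher, and the stressed groups overlapped with each other. Without WT_ST replicate 1, the highest of these mice, the WT_ST mean was 6.12% above CT. The summed FPKM of 8 neuron markers moved in the same way, from 2520 to 2925 in CT to 2987 to 3222 in WT_ST and 3065 to 3193 in KO_ST, though none of the 8 genes was called by limma, edgeR or DESeq2 (3 and 4 at an unadjusted p under 0.05 in limma, in WT_ST and KO_ST against CT). The mean FPKM of these genes ran from 27.3 to 1344, so the most abundant weigh most in the sum. A positive log2 fold change against CT was found for 7 of the 8 in WT_ST and for all 8 in KO_ST. The sum of 6 microglia markers moved the other way, with 126 to 158 in CT, 98.6 to 112 in WT_ST and 57.5 to 114 in KO_ST. The part of cell composition in the alpha sums was not tested, and in bulk tissue fewer cells of a type and less RNA per cell cannot be told apart.

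The summed beta FPKM was 41.1, 39.5 and 36.7 in CT (39.1 ± 2.21, n = 3), 41.1, 43.3 and 38.9 in WT_ST (41.1 ± 2.18) and 42.9, 42.8 and 43.1 in KO_ST (42.9 ± 0.182). KO_ST lay above CT without overlap, 9.74% higher in the mean. The mean of WT_ST was 5.06% above CT, and its mice lay both above and below the narrow range of KO_ST, the lowest of them within the range of CT. As a log2 ratio this difference was 0.07, and it moved to 0.03 without CT replicate 3 or WT_ST replicate 2 and to 0.11 without CT replicate 1 or WT_ST replicate 3. The log2 ratio of KO_ST to WT_ST was 0.06, and it moved to 0.10 without WT_ST replicate 2 and 0.03 without WT_ST replicate 3.

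The gamma means lay below CT in both stressed groups. The sum was 182, 181 and 184 in CT (182.6 ± 1.66, n = 3), 183, 176 and 171 in WT_ST (176.7 ± 5.70) and 171, 168 and 186 in KO_ST (175.0 ± 9.40). Against CT the gamma mean differed by -3.21% in WT_ST and -4.13% in KO_ST, and the groups overlapped. On the log2 scale the ratio to CT was -0.05 in WT_ST, ranging from -0.07 without WT_ST replicate 1 to -0.03 without WT_ST replicate 3. In KO_ST it was -0.06, ranging from -0.11 without KO_ST replicate 3 to -0.03 without KO_ST replicate 2. Within gamma, the A subtype summed to 68.6, 66.0 and 69.9 in CT and to 64.8, 61.6 and 60.8 in WT_ST, which did not overlap and differed by -8.46% in the mean. In KO_ST it summed to 64.4, 61.9 and 67.6 and overlapped with both. The B subtype summed to 20.3, 21.1 and 20.5 in CT, 22.1, 21.4 and 21.5 in WT_ST and 20.2, 20.0 and 21.2 in KO_ST, so that WT_ST lay above all other mice. Taken over all 3 clusters, the mean sum was 263.8 for CT, 262.4 for WT_ST and 264.5 for KO_ST.

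**Figure D3:**
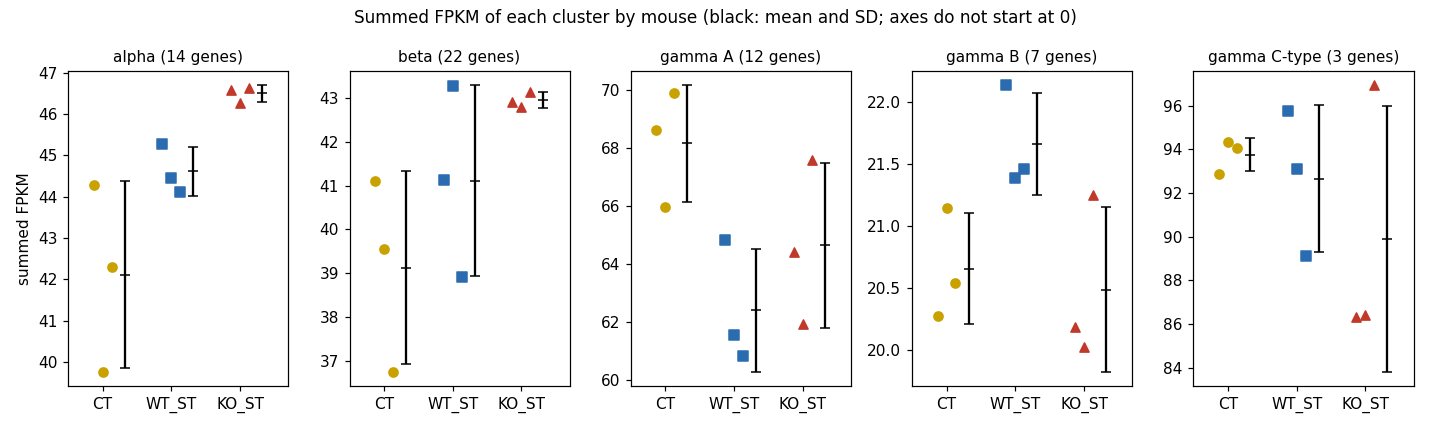
Summed FPKM of the alpha, beta, gamma A, gamma B and gamma C-type genes in each mouse, with the mean and SD of each group in black; the axes differ between panels and do not start at 0. The 3 KO_ST mice lie above all others for alpha and above CT for beta, and CT lies above WT_ST for gamma A.

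The C-type genes kept much the same share of their clusters. Pcdhac1 and Pcdhac2 together were 42.2%, 40.4% and 39.4% of the alpha FPKM in CT, 34.4%, 39.3% and 41.1% in WT_ST and 41.4%, 41.8% and 37.9% in KO_ST. These means of 40.7% ± 1.41, 38.3% ± 3.48 and 40.4% ± 2.14 (SD, n = 3) differed by less than the largest SD, and 1 WT_ST mouse lay below all others. In gamma the C-type share was 51.1%, 52.0% and 51.0% in CT, 52.4%, 52.9% and 52.0% in WT_ST and 50.5%, 51.3% and 52.2% in KO_ST. The WT_ST shares lay above those of CT by a gap smaller than 1 unit of the last digit shown, and KO_ST overlapped with both. Every gamma share was thus between 50.5% and 52.9%, and the share taken from reads in place of FPKM was 50.9% to 53.3%. Single C-type genes moved apart within this share. Pcdhgc5 alone held a mean of 35.1% of gamma in CT, 36.9% in WT_ST and 36.4% in KO_ST. Its highest CT mouse (36.1%) lay just below its lowest stressed mouse (36.2%). The mean share of Pcdhgc3 was 12.6%, 11.3% and 11.3%, with overlap.

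**Figure D4:**
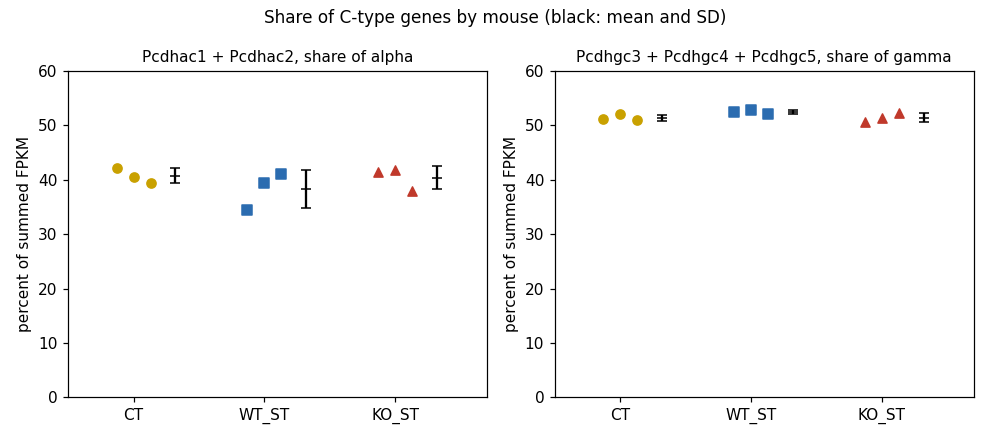
Share of the summed FPKM of the alpha cluster held by Pcdhac1 and Pcdhac2 (left) and of the gamma cluster held by Pcdhgc3, Pcdhgc4 and Pcdhgc5 (right), in percent, 1 point per mouse with the mean and SD in black. The alpha share spans 34.4% to 42.2%, the gamma share 50.5% to 52.9%, and the groups overlap or lie next to each other in both.

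Stress in wild-type mice was examined by comparing WT_ST with CT. A gene was called where limma gave an unadjusted p under 0.05 with a fold above 1.2. No clustered protocadherin was called, against 2.47% of all tested genes. By the p alone there were 2, Pcdha1 and Pcdhgb7 (7.86% of all genes), and edgeR and DESeq2 on the read counts each called 1, Pcdha11, where they called 3.72% and 3.84% of all genes. The groups did not overlap for 3 of the 57 members, Pcdha5 and Pcdhgb7 on the higher side and Pcdhb14 on the lower, against 14.0% of all genes. Pcdha5 and Pcdhb14 are named after their values were seen.

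The median log2 fold change of the members was 0.07, against 0.00 over all tested genes. It was 0.15 in alpha, 0.10 in beta and -0.04 in gamma. The beta value was 0.17 with a pseudocount of 0.1. The gamma value was -0.01 without WT_ST replicate 2, -0.03 without CT replicate 2 and -0.09 without WT_ST replicate 1, and -0.08 on the read counts in edgeR and DESeq2. Over the 15 alternatives the median of all members ran from 0.04 to 0.11. A positive log2 fold change was found for 11 of 14 alpha genes, 16 of 21 beta genes and 10 of 22 gamma genes, and for 51.3% of all genes. The largest positive value in these fits was that of Pcdha3 (0.38, SE 0.204, adjusted p = 0.679 from limma), whose CT mice spanned an FPKM of 0.779 to 2.34.

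The question whether the knock-out differed from unstressed wild type was asked by KO_ST against CT. Of the members, 2 were called higher and none lower, where 3.56% of all genes were called and 1.54% called higher. Both are beta genes, each encoding a single-exon adhesion protein. On the read counts edgeR also called Pcdhb20 higher and Pcdhgb8 lower, with 4.63% of all genes called, and DESeq2 also called Pcdhgb8 lower, with 5.14% of all genes called. Pcdhb17 had an FPKM of 4.87, 4.25 and 4.998 in CT, 6.04, 5.83 and 4.58 in WT_ST and 5.58, 5.76 and 6.11 in KO_ST. All KO_ST values lay above all CT values, and WT_ST spread over both ranges. From CT to KO_ST its log2 fold change was 0.29 (SE 0.0741, adjusted p = 0.470 from limma). The call was lost without CT replicate 2 (0.23), without KO_ST replicate 3 (0.26) and without quantile normalization (0.26).

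Pcdhb19 had an FPKM of 1.04, 0.870 and 0.692 in CT, 0.942, 1.22 and 1.21 in WT_ST and 1.39, 1.204 and 1.05 in KO_ST. The KO_ST and CT values did not overlap, by a narrow gap between 1.05 and 1.04. Its log2 fold change was 0.27 (SE 0.103, adjusted p = 0.501 from limma), or 0.50 on the read counts in edgeR and DESeq2. The limma call was lost without quantile normalization (0.25) and in 4 of the 6 fits that left out 1 mouse: CT replicate 2 (0.28), CT replicate 3 (0.19), KO_ST replicate 1 (0.20) or KO_ST replicate 2 (0.27).

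The KO_ST and CT groups did not overlap for 6 of the 57 members against 16.5% of all genes: Pcdhb17, Pcdhb19, Pcdhb20 and Pcdhgb2 on the higher side, Pcdhga5 and Pcdhga12 on the lower. The last 4 are named after their values were seen. The log2 fold change was positive for 19 of 21 beta genes, with a median of 0.12, for 11 of 14 alpha genes, with a median of 0.17, and for 9 of 22 gamma genes, with a median of -0.01. The beta median was 0.05 without CT replicate 3, 0.08 without KO_ST replicate 1 and 0.18 with a pseudocount of 0.1, and the alpha median was 0.11 without KO_ST replicate 1. The gamma median ran from -0.05 without KO_ST replicate 3 to 0.02 without KO_ST replicate 2, so its direction depended on single mice. Over all genes 51.0% were positive. Both comparisons use the same CT mice, so their directions are not independent of each other.

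The effect of the knock-out under stress was examined by KO_ST against WT_ST. Here 2 members were called lower and none higher, where 2.0% of all genes were called and 1.05% called lower. Both belong to the gamma B subtype. On the read counts the same 2 genes were called lower, and edgeR also called Pcdhga7 higher, with 2.96% of all genes called. DESeq2 called Pcdhga7 and Pcdha4 higher, with 2.85% of all genes called. In limma the log2 fold change was 0.27 for Pcdhga7 (SE 0.119, adjusted p = 0.860) and 0.30 for Pcdha4 (SE 0.156, adjusted p = 0.899), and the groups overlapped for both, which are named after their values were seen. Pcdhgb7 had an FPKM of 3.05, 3.06 and 2.90 in CT, 3.41, 3.55 and 3.56 in WT_ST and 2.95, 2.19 and 2.79 in KO_ST. The WT_ST mice lay above all 6 others, and KO_ST reached into the range of CT. Between KO_ST and WT_ST its log2 fold change was -0.31 (SE 0.0926, adjusted p = 0.746 from limma), and the call was lost without KO_ST replicate 2 (-0.21). Between WT_ST and CT it was 0.20, below the fold required.

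Pcdhgb8, the pseudogene, had an FPKM of 0.520, 0.512 and 0.167 in CT, 0.356, 0.324 and 0.662 in WT_ST and 0.169, 0.128 and 0.169 in KO_ST, from 28 to 151 reads per mouse. The KO_ST values lay below all WT_ST values, and CT replicate 3 was as low as the KO_ST mice. The log2 fold change between KO_ST and WT_ST was -0.32 (SE 0.0944, adjusted p = 0.725 from limma) on the log2(FPKM + 1) scale, which understates the change of a gene at this level. On the read counts it was -1.51 in both edgeR (adjusted p = 0.502) and DESeq2 (adjusted p = 0.0146). Without WT_ST replicate 3 it was -0.22 and the limma call was lost. Against CT, the values of Pcdhgb8 in KO_ST passed in edgeR and DESeq2 but not in limma (log2 fold change -0.25, adjusted p = 0.542), where they passed without CT replicate 3 (-0.38).

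KO_ST and WT_ST did not overlap for 7 of the 57 members, against 11.1% of all genes. Pcdhac2 and Pcdhb14 were on the higher side, and Pcdhb4, Pcdhgb6, Pcdhgb7, Pcdhgb8 and Pcdhgc4 on the lower; Pcdhb4, Pcdhb14 and Pcdhgb6 are named after their values were seen. The median log2 fold change was 0.02 over the members, -0.01 in alpha, 0.03 in beta and 0.00 in gamma. Over 15 alternatives the alpha median ran from -0.05 without KO_ST replicate 2 to 0.02 without KO_ST replicate 1, and the gamma median from -0.03 without WT_ST replicate 3 to 0.05 without WT_ST replicate 1, so neither kept a direction. The beta median stayed positive, from 0.02 without WT_ST replicate 1 to 0.07 in DESeq2, and that of all members ran from 0.01 to 0.04. In none of the 3 comparisons did a member pass an adjusted p of 0.05 in limma (Benjamini-Hochberg over all genes) or in edgeR, and in DESeq2 only Pcdhgb8 did in KO_ST against WT_ST, where 0.529% of all genes passed. In limma 0.0348% (5 genes), 0.0626% (9 genes) and 0.153% (22 genes) of all genes passed in WT_ST against CT, KO_ST against CT and KO_ST against WT_ST. By the unadjusted p alone 2, 4 and 3 members passed, against 7.86%, 9.46% and 5.82% of all genes.

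**Figure D5:**
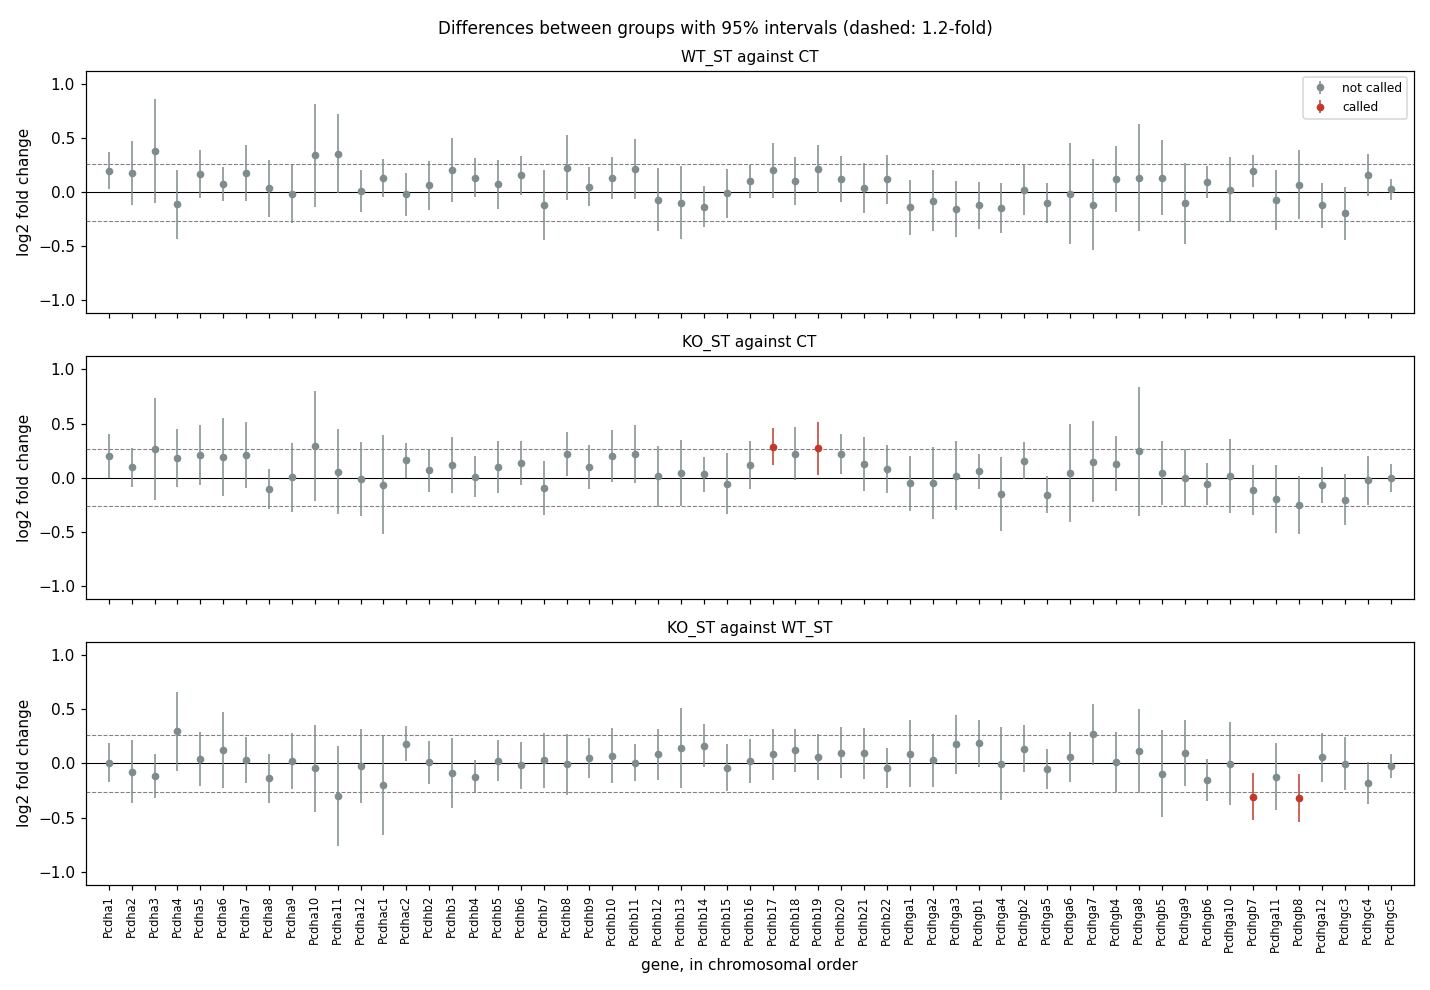
Log2 fold change of each of the 57 tested members with its 95% interval from limma in the 3 comparisons, in chromosomal order; dashed lines mark a fold of 1.2 and red points the called genes. Pcdhb17 and Pcdhb19 are called in KO_ST against CT, Pcdhgb7 and Pcdhgb8 in KO_ST against WT_ST, none in WT_ST against CT, and most intervals cross both 0 and a dashed line.

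None of the 5 C-type genes was called in any comparison by limma, edgeR or DESeq2, and at an unadjusted p under 0.05 limma gave 1, Pcdhac2 in KO_ST against WT_ST. Pcdhgc5 had the narrowest intervals, with log2 fold changes of 0.02 for WT_ST against CT (95% interval -0.07 to 0.12), -0.00 in KO_ST against CT (-0.13 to 0.12) and -0.03 in KO_ST against WT_ST (-0.14 to 0.08). A change of 1.2-fold lies outside each of these intervals. Pcdhac2 was 0.18 higher in KO_ST than in WT_ST on the log2 scale, with no overlap (SE 0.0681, unadjusted p = 0.0330, adjusted p = 0.830 from limma), which is 1.13-fold. The difference was 0.11 without WT_ST replicate 1, with an unadjusted p = 0.0834 from limma. Its values in CT overlapped with both stressed groups.

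Pcdhgc3 had an FPKM of 20.6, 23.1 and 25.6 in CT, 21.2, 21.6 and 17.3 in WT_ST and 18.8, 18.1 and 22.5 in KO_ST. The groups overlapped, and the log2 fold changes against CT were -0.20 in WT_ST (95% interval -0.44 to 0.05) and -0.20 in KO_ST (-0.43 to 0.03). Leaving out CT replicate 1 brought both past the criterion (-0.27 and -0.28), as did leaving out KO_ST replicate 3 for the latter (-0.29). Without CT replicate 3 both were -0.13, and without WT_ST replicate 3 the former was -0.10. Pcdhgc4, which is known to be needed for the survival of interneurons, had 6.63, 7.25 and 6.06 in CT, 7.54, 6.92 and 7.73 in WT_ST and 5.66, 6.86 and 6.52 in KO_ST. WT_ST and KO_ST did not overlap, with a log2 fold change of -0.18 between them (95% interval -0.38 to 0.01), which was -0.11 without KO_ST replicate 1. Pcdhac1 had 1.37, 1.34 and 1.53 in CT, 1.62, 1.43 and 1.78 in WT_ST and 1.95, 1.35 and 0.686 in KO_ST. The KO_ST mice spanned the ranges of both other groups.

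For the other members the width of the intervals limited what could be seen. The median half-width of the 95% interval was 0.24, 0.25 and 0.24 on the log2 scale in WT_ST against CT, KO_ST against CT and KO_ST against WT_ST, close to the 0.26 of a 1.2-fold change. Over all tested genes it was 0.17, 0.18 and 0.17 with the same mice. The interval lay wholly within 1.2-fold for 9, 7 and 13 of the 57 members. For the rest, the missing call does not show that the level was the same.

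The next lists hold genes that act with the clustered protocadherins, and their counts stand against the 2.47%, 3.56% and 2.0% of all genes called in WT_ST against CT, KO_ST against CT and KO_ST against WT_ST. Of 19 genes for promoter choice and chromatin at these clusters, including Ctcf, the cohesin subunits, Smchd1 and Setdb1, 0 were called in each comparison by limma, edgeR and DESeq2, with 0, 2 and 1 at an unadjusted p under 0.05 in limma. In KO_ST against CT 13 of the 19 had a negative log2 fold change. There 5 lay below CT without overlap and none above, where 16.5% of all genes did not overlap. These are Stag1, Smchd1, Setdb1, Dnmt3a and Wiz, named after their values were seen. In WT_ST against CT 1 lay lower without overlap (14.0% of all genes), and in KO_ST against WT_ST 1 higher and 2 lower (11.1%). Of 8 genes for cleavage by ADAM proteases and gamma-secretase, 0 were called by the same tools, with 0, 0 and 1 at that p in limma. Of 19 intracellular partners, such as focal adhesion kinases and the WAVE complex, 1 was called, Abi2 of the WAVE complex in KO_ST against WT_ST. Abi2 had an FPKM of 41.2, 41.9 and 12.6 in CT, 41.0, 11.6 and 14.2 in WT_ST and 42.3, 38.4 and 41.3 in KO_ST. It took either a low or a high level in each mouse, and its log2 fold change of 1.06 (SE 0.401, adjusted p = 0.830 from limma) lost the call in 10 of 15 alternatives, among them edgeR, DESeq2 and 5 of 6 fits without 1 mouse (0.73 to 1.095).

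Among the non-clustered protocadherins, which stand alone in the genome and bind through their own ectodomains, 11 of 12 were tested. Pcdh7 was called higher in both stressed groups against CT, with an FPKM of 14.98, 10.6 and 11.2 in CT, 14.6, 16.5 and 15.8 in WT_ST and 17.9, 17.4 and 18.3 in KO_ST. KO_ST lay above all other mice. The log2 fold change of Pcdh7 was 0.54 in KO_ST against CT (SE 0.119, adjusted p = 0.443 from limma) and 0.35 in WT_ST against CT (SE 0.125, adjusted p = 0.635 from limma), the latter lost without CT replicate 2 (0.26), CT replicate 3 (0.29), WT_ST replicate 2 (0.31) or WT_ST replicate 3 (0.34). Pcdh8, an activity-regulated protocadherin, was called lower in KO_ST against CT, at 11.5, 12.8 and 11.4 in CT, 10.1, 9.12 and 11.3 in WT_ST and 9.84, 8.86 and 8.91 in KO_ST (log2 fold change -0.32, SE 0.0687, adjusted p = 0.437 from limma). In KO_ST against CT the adjusted p of Pcdh7 was 0.484 in edgeR and 0.00339 in DESeq2, and that of Pcdh8 was 0.432 in edgeR and 0.0145 in DESeq2. DESeq2 also called Pcdh19 in WT_ST against CT, where it called 3.84% of all genes. In KO_ST against WT_ST both edgeR and DESeq2 called Pcdh19, with 2.96% and 2.85% of all genes called. Of 10 cadherins of the cortex, Cdh6 was called higher in KO_ST against CT (0.28, SE 0.0829, adjusted p = 0.491) and Cdh12 in KO_ST against WT_ST (0.36, SE 0.133, adjusted p = 0.830), both from limma. DESeq2 also called Cdh12 in KO_ST against CT, with 5.14% of all genes called, and Cdh9 in KO_ST against WT_ST, with 2.85%. The call of Cdh6 was lost without CT replicate 2 (0.26), CT replicate 3 (0.24), KO_ST replicate 1 (0.25) or quantile normalization (0.25). That of Cdh12 was lost without WT_ST replicate 1 (0.33), WT_ST replicate 2 (0.29), KO_ST replicate 1 (0.24) or the filter on low values (0.36), and in the fit on all 9 mice (0.36).

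Markers of other cell types varied between the same mice. Of 6 microglia markers, limma called 5 lower in each stressed group against CT, as did edgeR, while DESeq2 called 5 in WT_ST and 2 in KO_ST. Of 5 endothelial markers limma called 1 lower in WT_ST and 2 in KO_ST, where edgeR and DESeq2 called 1 and 3. Of 7 astrocyte markers 2 were called lower in WT_ST against CT by each tool. Of 6 striatal neuron markers limma called 2 higher in WT_ST and 1 in KO_ST against CT. In KO_ST against WT_ST limma called 1 microglia marker (P2ry12) and 1 endothelial marker (Kdr) lower. The summed FPKM of 6 oligodendrocyte markers was 457 to 868 in CT, 484 to 767 in WT_ST and 519 to 683 in KO_ST, and that of 7 astrocyte markers 729 to 796, 653 to 686 and 664 to 766. Sums of 4 oligodendrocyte precursor markers were 44.1 to 58.2, 39.7 to 46.9 and 39.8 to 47.4, those of 5 endothelial markers 36.4 to 42.4, 29.8 to 35.8 and 26.7 to 33.6, and those of 6 striatal neuron markers 51.0 to 80.9, 69.9 to 89.3 and 61.1 to 80.9. The 5 choroid plexus markers summed to at most 1.25. The labelled cortical tissue showed its neuron markers in every mouse, and the part of these differences in the protocadherin levels was not tested.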

How the data were processed

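Medial prefrontal cortex RNA was read by RNA-seq in 9 mice, 3 per group. Total RNA went into stranded mRNA libraries. According to the submitters' notes the reads were aligned with HISAT2 2.1.0 and Bowtie2 2.3.4.1 to mm10 (GRCm38) and quantified with StringTie 1.3.4d. The authors deposited read counts per gene without normalization. They also deposited FPKM values per gene, scaled for length and mapped reads.

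Each FPKM was taken as log2(FPKM + 1), quantile normalized over 24532 genes and tested for 14370 genes with a mean of at least 30 reads, using limma 3.58.1 with a mean-variance trend (R 4.3.3) on the 2 groups compared. Genes were called at p under 0.05 and a fold above 1.2. Benjamini-Hochberg adjustment ran over all tested genes. Whether the mice of a group were separate litters is not given in the sources used here, so the p-values measure the spread between these mice. As alternatives the counts were tested with edgeR 4.0.16 and DESeq2 1.42.0, and the fits were repeated with other pseudocounts, filters and scaling, a replicate block, all 9 mice, and each mouse left out. Leaving mice out of the subtype sums, and the alternatives for the median of all members, were chosen after seeing the data. The fits were tested on simulated data. Exon sharing came from the GENCODE annotation of GRCm38. Counting CVs cover counting error only.

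The members and lists were chosen with earlier results of these data known. Named with values in every mouse are the 5 C-type genes, the called members, the highest and lowest member of each cluster (Pcdhb1 by its reads), and Fkbp5. Pcdhga8 and Pcdha10 were added for their spread after their values were seen. Called genes of the other lists are named, at most 3 per list and comparison. Replicate numbers come from the sample titles. To check for pairing, each mouse's deviation from its group mean was correlated over genes with those of the other groups. The mean r was -0.0101 (-0.259 to 0.234) for same-numbered mice and 0.00494 otherwise, and no pairing was assumed. Figures were drawn with matplotlib 3.10.9.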

Additional observations from a re-analysis of the deposited data

How the results depend on the processing

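With 3 mice per group, the number of members called depended on the method, and every count stayed small. In WT_ST against CT, where limma called 0, a pseudocount of 0.1, edgeR and DESeq2 gave 1 each, edgeR without a filter gave 2, and leaving out 1 mouse gave 1 to 4, while the share of all genes called moved from 2.47% to 3.79%, 3.72%, 3.84%, 3.70% and 1.94% to 3.78%. In KO_ST against CT, with 2 called, a pseudocount of 0.1 gave 4, edgeR gave 4 and no quantile normalization gave 1 (Pcdhgb8, lower), and leaving out 1 mouse gave 2 to 5. The share of all genes called moved from 3.56% to 5.01%, 4.63%, 3.61% and 2.88% to 5.16%. In KO_ST against WT_ST, with 2 called, a mean FPKM of at least 1 gave 1, since Pcdhgb8 was then not tested, DESeq2 gave 4 (2 higher, 2 lower) and leaving out 1 mouse gave 1 to 5, with 1.88%, 2.85% and 1.70% to 3.32% of all genes called in place of 2.0%. The cause of the other changes was not tested. The replicate block called 2 members in WT_ST against CT, 2 in KO_ST against CT and 5 in KO_ST against WT_ST, with 2.78%, 3.91% and 1.94% of all genes called; the numbers did not pair the mice. Without quantile normalization the share of higher calls over all genes moved from 46.8% to 34.1% in WT_ST against CT and from 43.2% to 28.5% in KO_ST against CT. The directions of the cluster sums were the same under reads scaled to library depth in place of FPKM, the read filter, quantile-normalized FPKM and without each mouse, except for gamma in KO_ST against WT_ST, whose log2 ratio ran from -0.06 to 0.01. For the C-type genes, 17 of 225 alternative values had the opposite direction to an uncalled value and 4 were called. Leaving out a mouse leaves 2 in its group.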
